A study of Mus musculus with 10 samples.

Results

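The genes described here are 39 that a mouse oocyte transcribes while it grows, or whose product the embryo takes over from the egg. They are named by symbol and grouped by role, and all 39 were present among the 24421 genes of each deposited table. They cover the zona pellucida (Zp1, Zp2, Zp3), oocyte growth factors (Gdf9, Bmp15), the subcortical maternal complex and its Nlrp relatives (Nlrp5, Ooep, Padi6, Tle6, Khdc3, Nlrp2, Nlrp4f), other Nlrp and oocyte-secreted or oocyte-specific genes (Nlrp9b, Nlrp14, Oosp1, Oas1d) and maternal RNA decay (Btg4, Cnot6l, Zfp36l2, Pabpn1l). The rest serve RNA storage and translation (Cpeb1, Ybx2, Patl2, Dazl, Zar1, Zar1l, Mos), maternal chromatin (Dppa3, Npm2, H1foo), oocyte regulation (Nobox, Figla, Kit) or are other genes of the oocyte (Bcl2l10, Rfpl4, Tcl1, Uchl1, Ccnb3, Accsl).

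RNA was measured by total RNA sequencing of 8-cell embryos, all of BDF1 genotype, in 5 groups of 2 libraries. The groups were a knockdown of the transcription factor Tfap2c (siTfap2c), a knockdown of the transcription factor Klf5 (siKlf5), 2 groups in which Tfap2c motifs were knocked out (Arpc1bE_CdxE1_KO and CdxE2_KO) and a control (Ctrl). What the control embryos received and where the deleted motifs lie are not given in the labels. Zona and polar bodies were taken off before lysis, the libraries were primed at random, and the labels do not say whether the libraries of a group are separate pools of embryos, so the spread between them may be technical.

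A growing oocyte fills itself with RNA that it stores in a stable, partly silenced form. When meiosis resumes, BTG4 brings the CCR4-NOT deadenylase to these messages, and a further wave of decay follows once the genome of the embryo is switched on. Proteins of the subcortical maternal complex persist beneath the membrane and are needed for cleavage, although most of their messages are destroyed early. No earlier stage was among the samples, so maternal RNA that is left over and RNA made anew by the embryo cannot be told apart here. In libraries of whole embryos, fewer cells with a message and less of it per cell cannot be told apart either.

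The tables hold log2(abundance + 1). Values are given below as linear units, the kind of abundance is not named in the sources used here, and levels of different genes are therefore not ranked. The 4 motif knockout libraries had sums of linear values of 478651 to 498621, against 388454 to 395401 in the knockdown and Ctrl libraries. This step lies between groups and cannot be told apart from them. Tfap2c stood at 14.3 and 16.0 units in siTfap2c, and at 96.5 and 96.9 in Ctrl. Klf5 stood at 19.6 and 17.0 units in siKlf5, and at 146 and 139 in Ctrl. Klf5 was also low in siTfap2c, at 38.9 and 42.7 units, whereas Tfap2c stood at 90.1 and 94.0 in siKlf5. Both knockdown groups thus held less Klf5 message than Ctrl. Cdx2 stood at 0.708 and 1.88 units in Arpc1bE_CdxE1_KO, 0.762 and 0.900 in CdxE2_KO, and 4.10 and 4.57 in Ctrl. It was also below Ctrl in siTfap2c, at 0.174 and 0.480, and in siKlf5, at 1.22 and 1.34. Arpc1b stood at 8.66 and 8.85 units in Arpc1bE_CdxE1_KO, 27.7 and 24.3 in CdxE2_KO, and 25.2 and 21.3 in Ctrl. In siTfap2c it stood at 1.36 and 1.40 units, and in siKlf5 at 17.6 and 18.4. Of 15 genes listed for 8-cell embryos, 13 or 14 were at or above 1 unit in both libraries of each group. Those that fell below 1 unit were Sox2 (0.0326 to 1.10 units) and Upp1 (0.130 to 1.22 units). Gapdh, which most cells use, was listed at 0 to 0.753 units, so a gene listed at or near 0 is not shown to be absent. Markers of the cumulus and granulosa cells that surround the oocyte summed to between 7.98 and 8.83 units in siTfap2c, 6.78 and 10.2 in siKlf5, 11.6 and 13.0 in Arpc1bE_CdxE1_KO, 16.2 and 16.7 in CdxE2_KO, and 7.30 and 9.83 in Ctrl. Of these 19 markers, 5 were above 0 in all 10 libraries: Inhbb (0.454 to 3.81 units), Serpine2 (1.49 to 5.18 units), Gpx3 (1.57 to 3.59 units), Hsd17b1 (0.560 to 2.70 units) and Star (0.720 to 1.3 units). The other 14 were each listed at 0 in at least 1 library, among them Fshr, Inha and Lhcgr, listed at 0 in all 10.

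Most of the set could still be measured at the 8-cell stage. At or above 1 unit in both libraries were 27 of the 39 genes in siTfap2c, 29 in siKlf5, 29 in Arpc1bE_CdxE1_KO, 31 in CdxE2_KO and 28 in Ctrl. At or above 10 units in both libraries were 6 genes in siTfap2c, 5 in siKlf5, 9 in Arpc1bE_CdxE1_KO, 9 in CdxE2_KO and 5 in Ctrl. Of all 24421 genes, 38.8% reached 1 unit and 18% reached 10 units in both Ctrl libraries. In Arpc1bE_CdxE1_KO 41.0% and 20.0% did, and in CdxE2_KO 41.5% and 20.3%. With libraries rescaled to equal linear sums, 8 members reached 10 units in Arpc1bE_CdxE1_KO, 9 in CdxE2_KO and 6 in Ctrl. Below 1 unit in every library were 8 members, which were not tested: Pabpn1l, Cpeb1, Patl2, Zar1l, Mos, Nobox, Figla and Bcl2l10. The messages left out thus include the oocyte transcription factors NOBOX and FIGLA, the meiotic kinase MOS and the polyadenylation regulator CPEB1. The 39 members together took 10.9 and 9.72 of every 10000 linear units in siTfap2c, 13.8 and 14.9 in siKlf5, 18.1 and 14.5 in Arpc1bE_CdxE1_KO, 15.7 and 15.6 in CdxE2_KO, and 13.8 and 13.8 in Ctrl. In these shares, which do not depend on the sum of a library, siTfap2c lay below Ctrl, both knockouts lay above it, and siKlf5 held 1 library level with Ctrl and 1 above it. Dppa3 makes up most of this total. Without Dppa3, the other 38 members together took 4.85 and 4.20 of every 10000 linear units in siTfap2c, 4.35 and 4.23 in siKlf5, 5.37 and 4.59 in Arpc1bE_CdxE1_KO, 5.18 and 5.54 in CdxE2_KO, and 4.02 and 4.26 in Ctrl. Without Dppa3, siTfap2c and siKlf5 each overlapped Ctrl, and both knockout groups still lay above it.

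**Figure D1:**
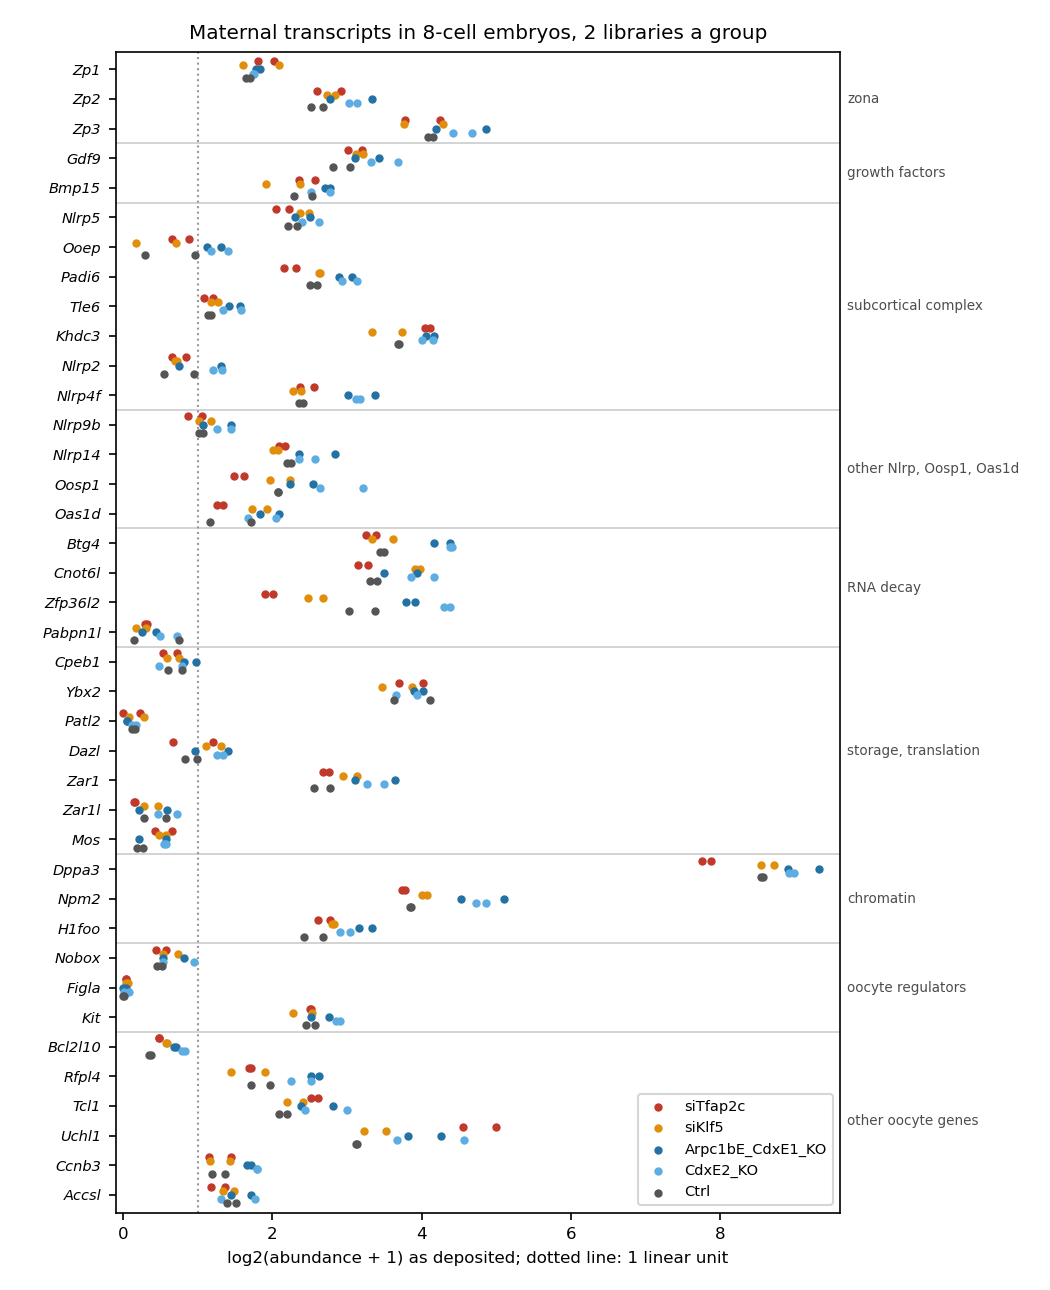
Log2(abundance + 1) of the 39 genes (rows, ordered by role) in each of the 10 libraries, with 1 point per library and 2 per group; the dotted line marks 1 linear unit. The 8 genes left of the line in every library include Nobox, Figla and Mos, Dppa3 lies far to the right, and the motif knockout points lie right of the Ctrl points for most rows.

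The zona genes encode the glycoproteins of the coat that surrounds the egg. Zp3, which takes part in sperm binding, stood at 17.9 and 12.7 units in the siTfap2c libraries, 18.4 and 12.5 in siKlf5, 27.9 and 17.3 in Arpc1bE_CdxE1_KO, 24.4 and 20.4 in CdxE2_KO, and 16.0 and 16.8 in Ctrl. Its knockdown libraries scattered on both sides of Ctrl, and all 4 knockout libraries lay above both Ctrl libraries. Of all genes tested, 61.9% in Arpc1bE_CdxE1_KO and 66.4% in CdxE2_KO lay above Ctrl in this way. In siTfap2c 36.5% did, and in siKlf5 24.9%. Below both Ctrl libraries lay 29.3% of all genes in siTfap2c and 30.4% in siKlf5. A group above Ctrl in the levels given here and below is therefore not a trait particular to a member. The same holds for a knockdown group below Ctrl. Zp1 ranged over the 10 libraries between 2.05 and 3.24 units, and Zp2 between 4.73 and 9.13 units.

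Gdf9 and Bmp15 encode ligands of the TGF-beta family that the oocyte sends to its cumulus cells. Gdf9 stood at 7.10 and 8.18 units in the siTfap2c libraries, 8.29 and 7.65 in siKlf5, 9.73 and 7.65 in Arpc1bE_CdxE1_KO, 9.01 and 11.8 in CdxE2_KO, and 7.22 and 6.02 in Ctrl. Its 2 CdxE2_KO values and 2 Arpc1bE_CdxE1_KO values lay above both Ctrl values, as did the 2 siKlf5 values. The values of siTfap2c overlapped those of Ctrl. Bmp15 ranged between 2.76 and 5.83 units.

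Among the genes of the subcortical maternal complex, Khdc3, an RNA-binding scaffold that guards chromosome segregation in cleavage, stood at 16.4 and 15.5 units in the siTfap2c libraries, 9.11 and 12.3 in siKlf5, 17.0 and 15.7 in Arpc1bE_CdxE1_KO, 15.0 and 16.7 in CdxE2_KO, and 11.9 and 11.8 in Ctrl. The siTfap2c and both knockout groups lay above Ctrl without overlap, while siKlf5 straddled it. With libraries rescaled to equal linear sums, the log2 fold change of Khdc3 was 0.12 in Arpc1bE_CdxE1_KO and 0.11 in CdxE2_KO. Padi6, a member of the peptidylarginine deiminase family needed for the cytoplasmic lattices of the egg, stood at 3.97 and 3.46 units in the siTfap2c libraries, 5.23 and 5.19 in siKlf5, 7.37 and 6.40 in Arpc1bE_CdxE1_KO, 7.75 and 6.61 in CdxE2_KO, and 4.68 and 5.08 in Ctrl. Both siTfap2c libraries lay below every other library. Nlrp4f, an NLRP protein reported to join the complex, stood at 4.16 and 4.86 units in the siTfap2c libraries, 4.22 and 3.84 in siKlf5, 9.40 and 7.05 in Arpc1bE_CdxE1_KO, 7.70 and 8.00 in CdxE2_KO, and 4.32 and 4.14 in Ctrl. Its 4 knockout values were each above 7 units, and its 6 other values each below 5 units. Of the central components, Nlrp5 ranged between 3.13 and 5.15 units, Tle6 between 1.11 and 2.0 units and Ooep between 0.126 and 1.66 units. Nlrp2 ranged between 0.458 and 1.5 units.

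Outside the complex, Oosp1, an oocyte-secreted protein, stood at 1.81 and 2.08 units in the siTfap2c libraries, 3.69 and 2.90 in siKlf5, 4.81 and 3.72 in Arpc1bE_CdxE1_KO, 5.24 and 8.24 in CdxE2_KO, and 3.23 and 3.21 in Ctrl. The lowest 2 of its 10 values were those of siTfap2c, and the highest 2 those of CdxE2_KO. Nlrp9b (0.830 to 1.74 units), Nlrp14 (3.01 to 6.15 units) and the oligoadenylate synthetase-like Oas1d (1.24 to 3.26 units) complete this role. Nlrp4f, Nlrp9b and Oas1d have close relatives in multigene families, and Dppa3 has pseudogene copies, so reads may have been divided between copies in a way the sources used here do not state.

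Among the genes of maternal RNA decay, Zfp36l2 had values that did not overlap between groups. Zfp36l2, which binds AU-rich elements and destabilises messages, stood at 2.72 and 3.02 units in the siTfap2c libraries, 5.37 and 4.54 in siKlf5, 12.8 and 14.0 in Arpc1bE_CdxE1_KO, 19.8 and 18.7 in CdxE2_KO, and 7.18 and 9.36 in Ctrl. No 2 groups overlapped, with siTfap2c lowest, siKlf5 next, then Ctrl, Arpc1bE_CdxE1_KO and CdxE2_KO. How many of all genes have 5 groups without overlap was not counted. With libraries rescaled to equal linear sums, the log2 fold change of Zfp36l2 was 0.34 in Arpc1bE_CdxE1_KO (adjusted p = 0.21 from limma). In CdxE2_KO it was 0.86 (adjusted p = 0.022 from limma). The direct test between the knockouts, given below, did not call Zfp36l2. Btg4, the adaptor of the CCR4-NOT deadenylase, stood at 9.47 and 8.51 units in the siTfap2c libraries, 9.04 and 11.3 in siKlf5, 19.8 and 16.9 in Arpc1bE_CdxE1_KO, 20.1 and 19.9 in CdxE2_KO, and 10.3 and 9.88 in Ctrl. Its knockout libraries were all above 16 units, whereas its knockdown and Ctrl libraries were all below 12 units. Cnot6l, a catalytic deadenylase of CCR4-NOT, stood at 8.74 and 7.83 units in the siTfap2c libraries, 14.8 and 14.0 in siKlf5, 10.2 and 14.3 in Arpc1bE_CdxE1_KO, 13.4 and 16.9 in CdxE2_KO, and 8.92 and 9.52 in Ctrl. The siKlf5 and both knockout groups were above Ctrl, and siTfap2c was below it, in each case without overlap. Pabpn1l, a poly(A)-binding protein of the oocyte, did not exceed 0.683 units.

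Of the genes for RNA storage and translation, Ybx2, the Y-box protein that packages stored messages, stood at 15.2 and 12 units in the siTfap2c libraries, 13.7 and 10.0 in siKlf5, 15.2 and 14.0 in Arpc1bE_CdxE1_KO, 14.3 and 11.6 in CdxE2_KO, and 11.3 and 16.2 in Ctrl. The Ctrl libraries spanned nearly the whole range of the other 8, and no group stood clear of them. Zar1, a regulator of stored maternal RNA, stood at 5.41 and 5.74 units in the siTfap2c libraries, 6.68 and 7.76 in siKlf5, 11.5 and 7.64 in Arpc1bE_CdxE1_KO, 8.65 and 10.3 in CdxE2_KO, and 4.88 and 5.83 in Ctrl. All 6 siKlf5 and knockout values were above both Ctrl values, and siTfap2c overlapped Ctrl. Dazl, an RNA-binding regulator of translation in germ cells, ranged between 0.591 and 1.65 units.

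The maternal chromatin genes act in the egg and the zygote: DPPA3 protects the maternal genome from demethylation, NPM2 organises nuclear and nucleolar chromatin, and H1FOO is the linker histone of the oocyte. Dppa3 stood at 233 and 215 units in the siTfap2c libraries, 371 and 421 in siKlf5, 637 and 479.8 in Arpc1bE_CdxE1_KO, 504 and 483 in CdxE2_KO, and 379 and 371 in Ctrl. Only siTfap2c lay below Ctrl, siKlf5 overlapped it at its lower end, and both knockout groups lay above it. Npm2 stood at 12.7 and 12.3 units in the siTfap2c libraries, 15.0 and 15.8 in siKlf5, 33.4 and 22.1 in Arpc1bE_CdxE1_KO, 25.5 and 28.1 in CdxE2_KO, and 13.5 and 13.3 in Ctrl. The first Arpc1bE_CdxE1_KO library was the highest of all, siKlf5 and both knockouts were above Ctrl, and siTfap2c was just below it. H1foo stood at 5.84 and 5.09 units in the siTfap2c libraries, 5.97 and 6.10 in siKlf5, 7.95 and 9.07 in Arpc1bE_CdxE1_KO, 6.49 and 7.19 in CdxE2_KO, and 4.39 and 5.41 in Ctrl. Its values in siKlf5 and in both knockouts were above Ctrl, and those of siTfap2c overlapped it.

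Of the oocyte regulators, only the receptor tyrosine kinase Kit, with 3.83 to 6.46 units, was at or above 1 unit in any library. Uchl1, a ubiquitin hydrolase abundant in oocytes and neurons, stood at 31.0 and 22.4 units in the siTfap2c libraries, 10.5 and 8.39 in siKlf5, 18.2 and 13.1 in Arpc1bE_CdxE1_KO, 11.8 and 22.6 in CdxE2_KO, and 7.68 and 7.77 in Ctrl. Its 2 Ctrl values were the lowest of the 10, the siTfap2c group reached highest, and the 2 CdxE2_KO libraries differed widely from each other. Rfpl4, a RING-finger protein of oocytes, stood at 2.22 and 2.27 units in the siTfap2c libraries, 1.71 and 2.75 in siKlf5, 5.18 and 4.75 in Arpc1bE_CdxE1_KO, 3.77 and 4.73 in CdxE2_KO, and 2.93 and 2.28 in Ctrl. Both knockout groups were above Ctrl, siTfap2c was just below it, and siKlf5 overlapped it. Ccnb3, a B-type cyclin of meiosis, stood at 1.72 and 1.22 units in the siTfap2c libraries, 1.23 and 1.71 in siKlf5, 2.17 and 2.28 in Arpc1bE_CdxE1_KO, 2.47 and 2.46 in CdxE2_KO, and 1.58 and 1.29 in Ctrl. The knockout values were above all 6 others. Tcl1, an activator of AKT (3.25 to 7.01 units), and Accsl (1.26 to 2.40 units) complete the set, and Bcl2l10 did not exceed 0.780 units.

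**Figure D2:**
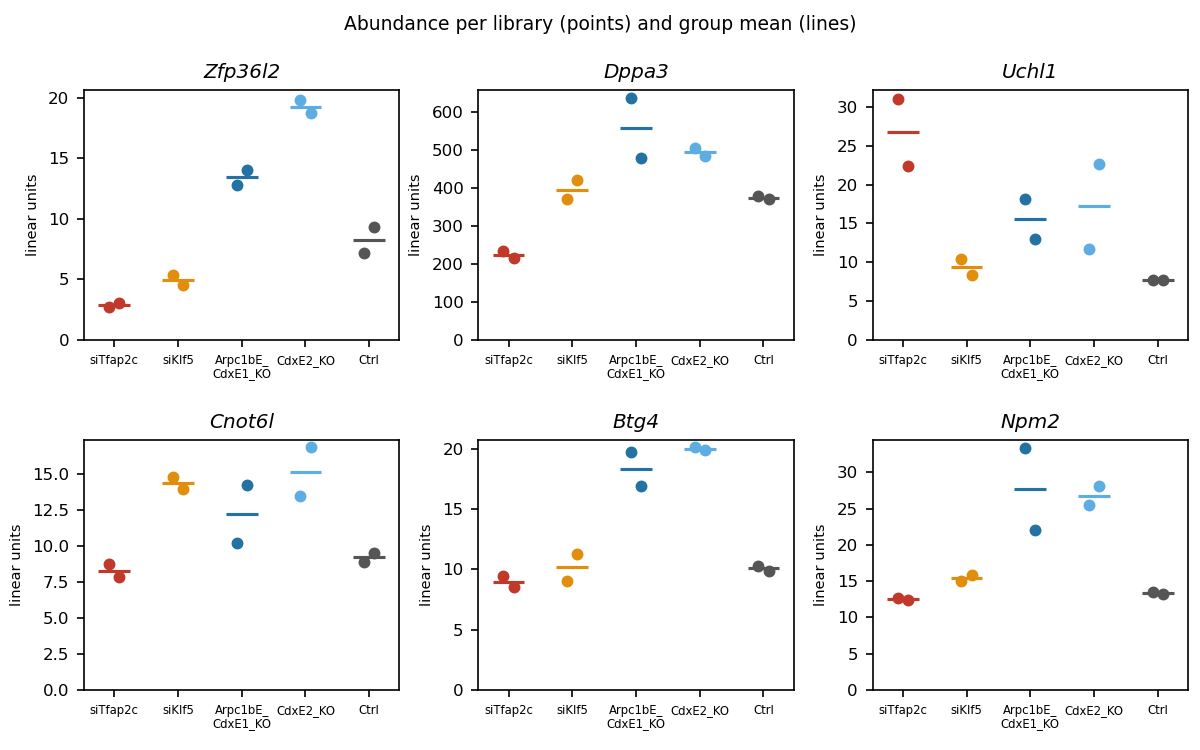
Linear units of 6 members in each library (points, 2 per group) with the mean of the group (line), each panel on its own axis starting at 0. Zfp36l2 and Dppa3 are lowest in siTfap2c, Uchl1 is highest there, Cnot6l stands above Ctrl in siKlf5, and Btg4 and Npm2 are highest in the motif knockouts.

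Promoters of some members that stood high in the motif knockouts are shown with the E-box, the motif through which FIGLA activates oocyte genes. They were picked by that rise in the same data, and called members that rose without a match are named below. Figla itself did not exceed 0.0590 units, and a part of FIGLA in the rise was not tested. The 250 bases before the RefSeq gene start (GRCm38.p6) were found for 29 of the 39 members. Zfp36l2, Npm2, Dppa3 and Gdf9, each called in a knockout, were not among them. The letters CANNTG, searched on both strands (the motif is its own reverse complement in form), occurred in 25 of the 29, or 86.2%, against 66.1% of all 27025 promoters of the same length. The Btg4 window lies at chr9:51115751-51116000 on the plus strand. Those of Zar1, at chr5:72581085-72581334, and Nlrp4f, at chr13:65205717-65205966, lie on the minus strand. The RefSeq starts differ from the outer starts of the GENCODE M21 genes (GRCm38). By the latter, the Btg4 and Nlrp4f windows lie inside the gene, and the Zar1 window partly so. Each is printed 5′ to 3′ with its CANNTG matches in capitals.
Btg4: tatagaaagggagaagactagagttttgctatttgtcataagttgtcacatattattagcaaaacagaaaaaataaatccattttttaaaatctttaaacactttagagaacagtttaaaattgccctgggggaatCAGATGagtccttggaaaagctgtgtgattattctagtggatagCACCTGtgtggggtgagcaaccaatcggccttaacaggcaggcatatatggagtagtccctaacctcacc
Zar1: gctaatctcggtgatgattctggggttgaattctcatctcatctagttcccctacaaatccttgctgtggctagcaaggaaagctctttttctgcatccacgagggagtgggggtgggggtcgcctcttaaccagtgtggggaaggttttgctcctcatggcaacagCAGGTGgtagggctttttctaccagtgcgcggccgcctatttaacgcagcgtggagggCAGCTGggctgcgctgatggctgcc
Nlrp4f: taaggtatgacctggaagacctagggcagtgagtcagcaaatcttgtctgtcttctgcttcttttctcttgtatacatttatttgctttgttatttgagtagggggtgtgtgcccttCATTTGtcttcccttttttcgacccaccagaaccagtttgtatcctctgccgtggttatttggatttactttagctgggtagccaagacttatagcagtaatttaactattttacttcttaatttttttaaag
Btg4 and Zar1 each held 2 matches, and Nlrp4f held 1. Khdc3 and Oosp1 held the most, 5 each, while Uchl1, Cnot6l, Kit and Nlrp2 held 0. Uchl1 and Cnot6l were themselves called higher in CdxE2_KO, with log2 fold changes of 0.99 and 0.66. Members that rose thus occur both with and without a match. In Khdc3, 1 match overlapped another.

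The AP-2 motif GCCNNNGGC, bound by factors of the Tfap2c family and searched on both strands, occurred in 2 of the 29 member promoters, or 6.9%, against 13.5% of all promoters. These 2 were Kit and Ybx2, and neither passed the test in siTfap2c. Of the members that did pass it, Uchl1 held 0 matches. Zfp36l2 and Dppa3 were not among the 29 and were not searched. Ybx2 carried 2 matches in its window at chr11:69935649-69935898 on the plus strand of GRCm38.p6. Its GENCODE M21 gene starts at 69935796, inside this window, and the later match lies past that start. The window is read 5′ to 3′ with both matches in capitals.
Ybx2: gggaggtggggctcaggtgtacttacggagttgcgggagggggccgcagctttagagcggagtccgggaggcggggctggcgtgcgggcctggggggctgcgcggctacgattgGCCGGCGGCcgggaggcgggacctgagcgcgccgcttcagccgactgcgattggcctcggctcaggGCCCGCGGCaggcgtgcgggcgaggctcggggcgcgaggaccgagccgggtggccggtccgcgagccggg
The KLF motif GGGNGTG occurred in 8 of the 29, or 27.6%, against 26.0% of all promoters, with an overlapping pair in Zar1 and in Nlrp4f. The NOBOX motif TAATTG occurred in 3, or 10.3%, against 7.33%. A match describes letters in this window and does not show binding.

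The genes themselves were scattered over 15 chromosomes, with 7 members each on chromosomes 5 and 7 (GENCODE M21, GRCm38). Only 3 pairs lay within 1 Mb of each other: Rfpl4 and Nlrp2 on chromosome 7, Zp1 and Oosp1 on chromosome 19, and Bmp15 and Ccnb3 on the X chromosome. Zfp36l2 lies on chromosome 17 at 84183931 to 84187947 on the minus strand, Dppa3 on chromosome 6 at 122626410 to 122630272 on the plus strand, and Uchl1 on chromosome 5 at 66676091 to 66687234 on the plus strand.

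Differences from Ctrl were tested with limma on the log2(abundance + 1) values over all genes with at least 1 unit in at least 2 libraries, with a call where the p adjusted by Benjamini and Hochberg was under 0.05. A log2 fold change on this scale understates the change of genes at low levels. The 4 comparisons share the 2 Ctrl libraries. The 31 members tested passed a filter that a gene high in a single group can pass, so counts over them are a description. The knockdown tables hold no control of their own, so the knockdown comparisons set values of different tables against each other.

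In siTfap2c embryos Zfp36l2 and Dppa3 fell and Uchl1 rose relative to Ctrl. Zfp36l2 changed by a log2 fold of -1.25 (SE 0.14, adjusted p = 0.00021). Dppa3 changed by a log2 fold of -0.74 (SE 0.12, adjusted p = 0.0022). Uchl1 changed by a log2 fold of 1.65 (SE 0.27, adjusted p = 0.0022). Thus 1 of 31 members rose and 2 fell, where 24.6% of all 11195 genes tested were called, 12.6% higher and 11.9% lower. The median over the members was -0.01, and over all genes 0.04. The next members by p did not pass: Khdc3 had 0.39 (adjusted p = 0.055 from limma), Oosp1 -0.52 (adjusted p = 0.087) and Padi6 -0.32 (adjusted p = 0.098). Libraries of siTfap2c lay above both Ctrl libraries without overlap for 4 members, where 36.5% of all genes did, and below them for 10 members, where 29.3% of all genes did. The 10 of 31 lie near that share of all genes. They included the 3 tested decay genes, of which Btg4, at -0.15, and Cnot6l, at -0.14, did not pass. Fitting only the 4 libraries compared called 6 members, 3 higher and 3 lower.

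Beyond the members, decay genes changed in both directions in siTfap2c: of 34 tested genes for deadenylation and decay, 8 rose and 4 fell, among them the BTG/TOB adaptor genes Tob1 at 1.18 and Btg1 at -0.53 and the deadenylase gene Cnot7 at 0.41. Of 26 further oocyte transcripts tested, 0 rose and 1 fell, Izumo1r, the egg receptor for sperm, at -0.67. Of 21 tested maternal effect genes for chromatin, 3 rose and 3 fell, led by the Polycomb methyltransferase gene Ezh2 at -1.03, the corepressor gene Trim28 at -0.68, the Polycomb ligase gene Rnf2 at 0.40 and the demethylase gene Kdm4a at -0.40. Of the genes listed for 8-cell embryos, 0 rose and 10 of 14 fell. Beside these counts, 12.6% of all genes were called higher and 11.9% lower.

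In siKlf5 embryos 1 member passed the test, and it was again Zfp36l2, which fell. Its log2 fold change was -0.63 (SE 0.14, adjusted p = 0.026), and the adjusted p was 0.061 without siKlf5 replicate 1, 0.16 without siKlf5 replicate 2, 0.16 without Ctrl replicate 2 and 0.063 with no filter on low values. Cnot6l, at a log2 change of 0.59 (SE 0.16, adjusted p = 0.052), did not pass. So 0 of 31 members rose and 1 fell, where 7.52% of the 11195 genes tested were called, 2.25% higher and 5.27% lower. At an unadjusted p under 0.05 there were these 2 members and no others. The median over the members was 0.05, and over all genes -0.02. Libraries of siKlf5 lay above both Ctrl libraries for 12 members, where 24.9% of all genes did, and below them for 2 members, Zfp36l2 and Nlrp14, where 30.4% of all genes did. Among the 12 were Zar1 at 0.37, Oas1d at 0.39 and H1foo at 0.26, none of which passed. Of the 34 deadenylation and decay genes, 1 rose, the BTG/TOB family gene Btg3 at 1.10, and 2 fell, among them the helicase gene Upf1 at -0.33. Of the 26 further oocyte transcripts, Nlrp4e rose at 0.70 and the histone reader gene Spin1 fell at -0.44. Of the 21 chromatin genes, 0 rose and 2 fell, the insulator gene Ctcf at -0.33 and the methyltransferase gene Dnmt3a at -0.47. Of the genes listed for 8-cell embryos, 0 rose and 7 of 14 fell, beside 2.25% of all genes called higher and 5.27% lower.

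The knockdowns were also tested against each other, with the spread estimated over all 10 libraries. It called 6 members, 2 higher and 4 lower in siTfap2c, where 25.6% of all genes were called, 15.1% higher and 10.5% lower. Dppa3 was lower in siTfap2c by a log2 difference of -0.82 (SE 0.12, adjusted p = 0.0014), and Uchl1 was higher by 1.40 (SE 0.27, adjusted p = 0.0052). Both passed also without each of the 4 libraries in turn. Zfp36l2 was lower, at -0.62 (SE 0.14, adjusted p = 0.0094 from limma). Without siTfap2c replicate 1 or siKlf5 replicate 1 its adjusted p was 0.067 or 0.071. Cnot6l was lower, at -0.73 (SE 0.16, adjusted p = 0.0083), with an adjusted p of 0.061 without siTfap2c replicate 2 and 0.053 without siKlf5 replicate 1. Khdc3 was higher, at 0.54 (SE 0.13, adjusted p = 0.014), and its adjusted p was 0.087, 0.054 or 0.092 without siTfap2c replicate 1, siTfap2c replicate 2 or siKlf5 replicate 1. Padi6 was lower, at -0.40 (SE 0.13, adjusted p = 0.045), and missed the threshold whichever of the 4 libraries was left out, with adjusted p between 0.084 and 0.22. It also missed it when only the 4 knockdown libraries were fitted (adjusted p = 0.053 from limma) and with no filter on low values (adjusted p = 0.076).

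**Figure D3:**
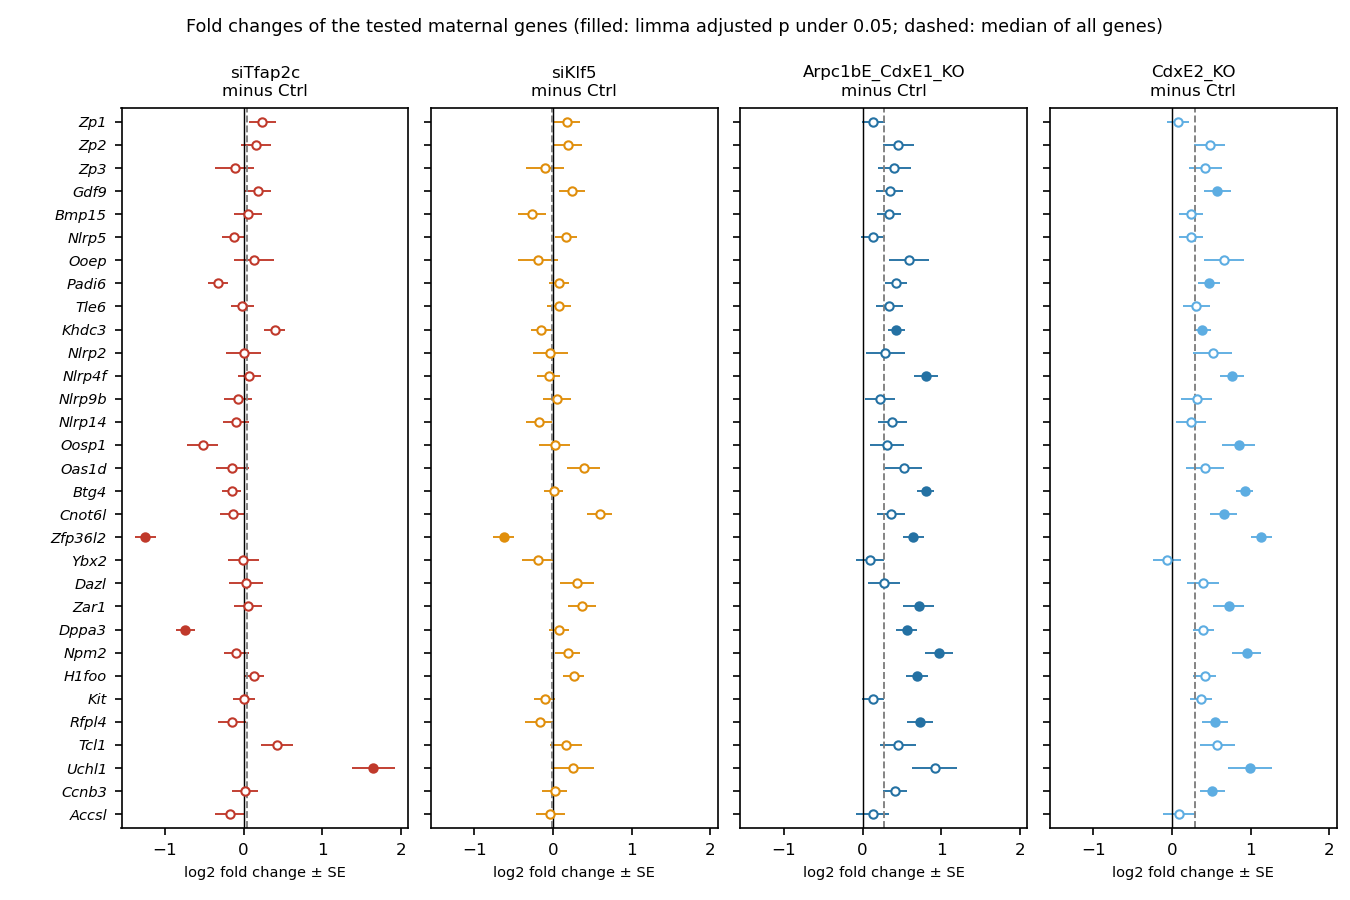
Log2 fold change from Ctrl with its standard error for the 31 tested members (rows) in the 4 comparisons (panels); filled points passed limma at an adjusted p under 0.05, the solid line marks 0 and the dashed line the median of all genes tested. Filled points number 3 in siTfap2c, 1 in siKlf5, 9 in Arpc1bE_CdxE1_KO and 13 in CdxE2_KO, and in the knockouts the dashed line itself lies at 0.27 and 0.29.

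In Arpc1bE_CdxE1_KO embryos 9 of 31 members rose and 0 fell, where 24.0% of all 10920 genes tested were called, 23.2% higher and 0.815% lower. The rise of the members ran alongside that of the whole library: the median over the members was 0.41 on the log2 scale and over all genes 0.27, and 9155 of the 10920 genes had a positive fold change. The largest called fold was that of Npm2, 0.97 (SE 0.18, adjusted p = 0.014). Nlrp4f had 0.81 (SE 0.15, adjusted p = 0.015) and Btg4 0.80 (SE 0.11, adjusted p = 0.0079). All 3 chromatin genes rose, with H1foo at 0.69 (SE 0.14, adjusted p = 0.019) and Dppa3 at 0.56 (SE 0.13, adjusted p = 0.027). The others that rose were Rfpl4 at 0.73, Zar1 at 0.72, Zfp36l2 at 0.65 and Khdc3 at 0.43, with adjusted p between 0.021 and 0.040 from limma. Uchl1, at 0.91 (SE 0.28, adjusted p = 0.054), did not pass. Libraries lay above both Ctrl libraries for 25 members, where 61.9% of all genes did, and below them for 0 members, where 5.43% did. When each library was centred on its median gene, or rescaled to the same linear sum, 0 of the 9 passed. Btg4 then had 0.48 (adjusted p = 0.063 from limma) or 0.49 (adjusted p = 0.059), and of the 31 members 22 or 26 kept a positive sign. Without Ctrl replicate 1, or without Ctrl replicate 2, 0 members passed.

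In CdxE2_KO embryos 13 of 31 members rose and 0 fell, where 29.9% of all genes tested were called, 28.5% higher and 1.44% lower. The median over the members was 0.47, over all genes 0.29, and 30 of 31 members had a positive fold change, Ybx2 being the exception at -0.07. All 3 tested genes of maternal RNA decay rose: Zfp36l2 had 1.14 (SE 0.14, adjusted p = 0.0044), Btg4 0.92 (SE 0.11, adjusted p = 0.0043) and Cnot6l 0.66 (SE 0.18, adjusted p = 0.031). In the subcortical maternal complex group Nlrp4f rose at 0.76, Padi6 at 0.47 and Khdc3 at 0.38, with adjusted p between 0.014 and 0.040 from limma. Npm2 had 0.95 (SE 0.18, adjusted p = 0.012), while Dppa3 at 0.40 (SE 0.13, adjusted p = 0.06) and H1foo at 0.41 (SE 0.14, adjusted p = 0.066) did not pass. Uchl1 rose at 0.99, Oosp1 at 0.85, Zar1 at 0.72, Gdf9 at 0.58, Rfpl4 at 0.54 and Ccnb3 at 0.51, with adjusted p between 0.026 and 0.046 from limma. Libraries lay above both Ctrl libraries for 27 members, where 66.4% of all genes did, and below them for 0 members, where 7.34% did.

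Zfp36l2 and Btg4 were the members whose rise in CdxE2_KO passed under each of the 11 alternatives tried. Centred on library medians, Zfp36l2 had 0.81 (adjusted p = 0.027 from limma) and Btg4 0.59 (adjusted p = 0.028). Rescaled to equal linear sums, Zfp36l2 had 0.86 (adjusted p = 0.022) and Btg4 0.65 (adjusted p = 0.022). Under these scalings the other 11 did not pass, and 23 or 27 of the 31 members kept a positive sign. Leaving out CdxE2_KO replicate 1 left 5 members called, and leaving out CdxE2_KO replicate 2, Ctrl replicate 1 or Ctrl replicate 2 left 2. Uchl1, whose CdxE2_KO libraries differed most, passed without CdxE2_KO replicate 1 and missed without CdxE2_KO replicate 2 and without either Ctrl library.

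**Figure D4:**
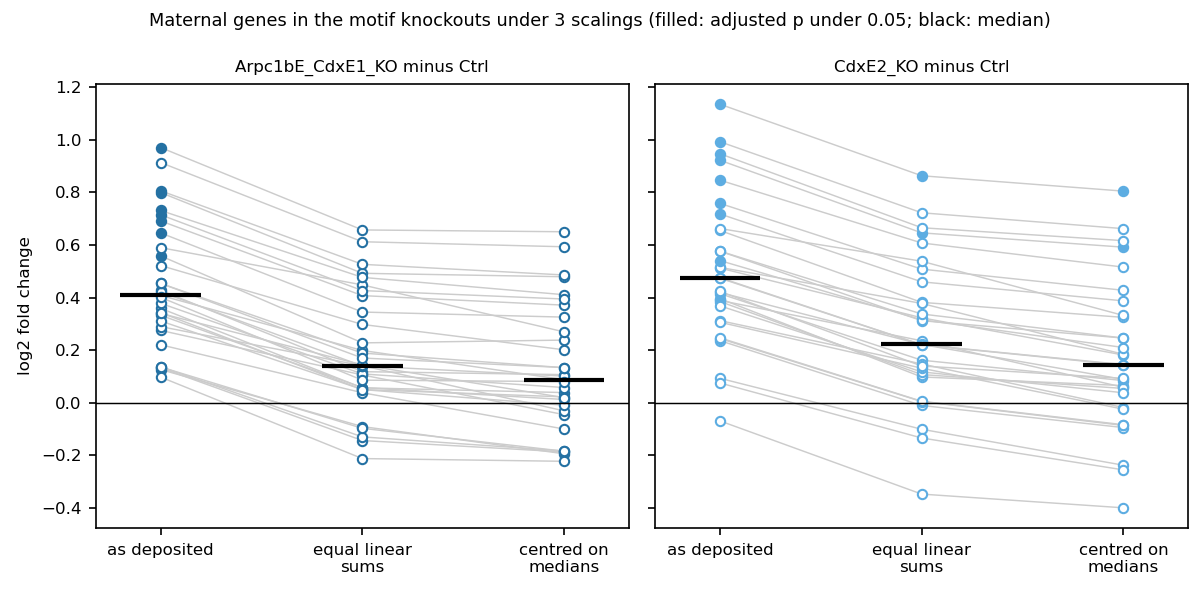
Log2 fold change of the 31 tested members (points joined by lines) in the 2 motif knockouts against Ctrl under 3 scalings of the libraries, with filled points for an adjusted p under 0.05 and black bars for the median. In Arpc1bE_CdxE1_KO the median is 0.41 as deposited, 0.14 with equal linear sums and 0.09 when centred, and in CdxE2_KO it is 0.47, 0.22 and 0.14; Zfp36l2 and Btg4 stay filled in CdxE2_KO under each.

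The called genes of the other maternal lists were also all higher in the knockouts, where 23.2% of all genes in Arpc1bE_CdxE1_KO and 28.5% in CdxE2_KO were called higher. Calls over all genes numbered 2621 and 3270 in these 2 groups as deposited, 321 and 681 when libraries were centred, and 313 and 696 with equal linear sums. Of 24 further oocyte transcripts tested, 9 rose and 0 fell in Arpc1bE_CdxE1_KO, among them the NLRP gene Nlrp4c at 1.09, Omt2a at 0.98, Trim61 at 0.71 and Spin1 at 0.51. In CdxE2_KO 12 of the 24 rose and 0 fell, with Trim61 at 0.92, Omt2a at 0.90, the meiotic kinase gene Wee2 at 0.76 and Spin1 at 0.63. Of 34 deadenylation and decay genes, 8 rose in Arpc1bE_CdxE1_KO and 14 in CdxE2_KO, and 0 fell in either; Tob2, an adaptor like Btg4, had 0.61 in Arpc1bE_CdxE1_KO and 1.00 in CdxE2_KO. Of 21 chromatin genes, 7 and 8 rose in these 2 groups and 0 fell. Of the 14 genes for 8-cell embryos, 6 rose and 1 fell in Arpc1bE_CdxE1_KO, and 3 rose and 3 fell in CdxE2_KO. The list medians were 0.47 and 0.49 for the oocyte transcripts, 0.25 and 0.31 for decay and 0.19 and 0.24 for chromatin, beside 0.27 and 0.29 for all genes. Of 5 tested cumulus and granulosa genes, 2 rose in each knockout, the inhibin subunit gene Inhbb at 0.72 in Arpc1bE_CdxE1_KO and 1.10 in CdxE2_KO, and the protease inhibitor gene Serpine2 at 0.70 and 0.88. Their part in the results for the members was not tested.

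Set directly against each other, the knockouts gave no called member: limma called 0 of 31 in CdxE2_KO against Arpc1bE_CdxE1_KO, where 0.0458% of all genes were called, 0.0366% higher and 0.00916% lower. At an unadjusted p under 0.05 there were 2 members, Zfp36l2 with a log2 difference of 0.49 (SE 0.14, adjusted p = 0.32) and Oosp1 with 0.54 (SE 0.21, adjusted p = 0.42), both higher in CdxE2_KO. The difference of 9 and 13 called members between the knockouts is therefore not shown to be a difference between them.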

How the data were processed

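The authors deposited 3 tables of log2 values, the log2 of abundance + 1 per gene symbol, for 10 libraries. The build was mm10, and StringTie 1.3.4, Cufflinks, HISAT2 2.1.0 and SAMtools 1.7 are named, per the submitters' processing notes. The abundance unit and use of strand are not given in the sources used here. No counts were analysed, so depth is unknown, and 2 libraries a group limit the precision.

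A gene entered the tests if 2 or more libraries had 1 linear unit or more. Tests used limma 3.58.1 (R 4.3.3) with a trended eBayes prior, and a call needed a p under 0.05 after Benjamini-Hochberg adjustment. The knockdowns were fitted on all 10 libraries (11195 genes), across tables, and the motif knockouts on the 6 libraries of their table (10920 genes). On simulated data the fits recovered 60% to 78% of changes of log2 1 and 89% to 98% of those of log2 2. Of the simulated calls, 2.47% to 7.14% were false. The simulation held no library-wide shift between groups and no difference between tables, so it does not cover these. Every library had its own column, and its group came from the labels.

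Values in every library are given for members that average at least 10 units or were called in a comparison with Ctrl, others by range. Of other lists, called genes were counted and up to 4 with the lowest p named, apart from 1 gene not reported here. The members and lists were chosen with earlier results of these data known. Positions are from GENCODE M21, and promoter sequences from RefSeq, where H1foo is listed under another symbol. Alternatives were 2 other scalings, a constant of 0.1, no filter, a filter at 5 units, a replicate block, other libraries in the fit, and leaving out each library in turn.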

Additional observations from a re-analysis of the deposited data

Results flagged for a closer look

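The direct comparison of siTfap2c with siKlf5 set 6 of the 31 tested members apart by limma, where 25.6% of all genes were called. The log2 difference, siTfap2c minus siKlf5, was -0.82 for Dppa3 (adjusted p = 0.0014), with 2 of 2 siTfap2c libraries below both siKlf5 libraries. It was 1.40 for Uchl1 (adjusted p = 0.0052), with both siTfap2c libraries above both siKlf5 libraries. It was -0.73 for Cnot6l (adjusted p = 0.0083) and -0.62 for Zfp36l2 (adjusted p = 0.0094), again with no overlap. It was 0.54 for Khdc3 (adjusted p = 0.014) and -0.40 for Padi6 (adjusted p = 0.045), the pair with the smallest differences of the 6. When each of the 4 libraries was left out in turn, Padi6 passed in 0 of 4 fits and Khdc3 in 1 of 4, Cnot6l and Zfp36l2 in 2 of 4 each, and Dppa3 and Uchl1 in 4 of 4.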

How the results depend on the processing

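No fold change of a called member turned its sign under the alternatives. Called members were 6 in siTfap2c with only the 4 libraries compared, against 3 as reported. In siKlf5, against 1, they were 2 when libraries were centred on their medians, with the filter at 5 units, or with only the 4 libraries compared, 0 without a filter, and 0 to 1 when a library was left out. In Arpc1bE_CdxE1_KO, against 9, they were 0 when centred, 0 with equal linear sums, 2 without a filter, and 0 to 12 when a library was left out. In CdxE2_KO, against 13, they were 2 when centred, 2 with equal sums, 4 without a filter, and 2 to 5 when a library was left out. Fewer libraries lower the residual degrees of freedom, and the lone library that remains in a group is assumed to vary like the other groups. The cause of the other changes was not tested.

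Genes called over all numbered 2749 in siTfap2c, and 1535 to 1773 when a library was left out. In siKlf5 they were 842, with 507 without a filter and 211 to 317 when a library was left out, and the share of calls that were higher was 29.9%, or 46.2% when centred. In Arpc1bE_CdxE1_KO they were 2621, with 321 when centred, 313 with equal sums, 1166 without a filter, 313 without Ctrl replicate 1 and 161 without Ctrl replicate 2. In CdxE2_KO they were 3270, with 681 when centred, 696 with equal sums, 1858 without a filter and 514 to 1099 when a library was left out. Of the calls 96.6% and 95.2% were higher in these 2 knockouts as deposited, 55.5% and 42.3% when centred, and 58.5% and 58.2% with equal sums. The all-gene medians moved to -0.05 and -0.04 when centred, and to -0.00 and 0.05 with equal sums.

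Deviations of same-numbered libraries from their group means correlated at -0.05 to 0.04 across genes, so no pairing by number was seen. With 2 libraries a group, a small shared effect was not tested. With the replicate block the called members were 3 in siTfap2c, 1 in siKlf5, 8 in Arpc1bE_CdxE1_KO and 9 in CdxE2_KO.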
